A study of Mus musculus with 18 samples.

Results

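The 42 genes described here are interferon-stimulated effectors, the proteins that cells make under interferon to block virus entry, copying and release or to amplify the response. They were chosen by symbol as effectors outside the better known Oas, Ifit, ISG15, PYHIN, Schlafen, guanylate-binding and immunity-related GTPase and sensor families, and as rows present in both of the authors' deposited tables of DESeq2 results. All 42 were listed, among 14423 genes for bone marrow and 21830 for spleen, of which 13776 symbols were in both. RNA came from dissociated cells of C57BL/6 mice and was read by QuantSeq, which sequences a tag near the polyadenylated end of each transcript. Bone marrow without transplantation was compared between 4 libraries from Cgas-/- mice, which lack the DNA sensor cGAS and so make no cGAMP, and 4 from Trex1-/-;Sting1gt/gt mice, called dKO, which lack the exonuclease TREX1 and carry the goldenticket allele that leaves no functional STING, the receptor of cGAMP. Spleen was compared 12 weeks after transplantation between 2 groups of 5 libraries, all from dKO mice that had been lethally irradiated and then given either Cgas-/- or dKO marrow, so that host cells that survive irradiation were dKO in both groups. No group was wild type, and neither comparison isolates 1 of the alleles. Whether each library stands for a mouse of its own is not stated in the labels, so every p-value reflects the spread between libraries, part of which may be technical. A negative change means a lower level with Cgas-/- cells or marrow than with dKO.

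Type I interferon binds a cell surface receptor and, through it, leads transcription factors to the interferon-stimulated response element, a short repeat of GAAA in the promoters of target genes. The effectors so induced act at many steps: IFITM proteins hinder the fusion of virus and cell membranes, tetherin (Bst2) holds budding virus at the surface, viperin (Rsad2) and Cmpk2 make chain-terminating nucleotides, and PARP, TRIM and PML proteins modify or sequester viral and host proteins. In bone marrow and spleen many of them are also expressed at rest, more in some myeloid and lymphoid cells than in others. In bulk tissue, fewer cells of a type and less RNA per cell cannot be told apart.

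Single libraries were not analysed here, so each gene is given by the authors' mean normalized count over all libraries of a tissue, their log2 fold change and its standard error (written after ±), and the depth per library is unknown. Cgas in bone marrow had a log2 fold change of -1.13 ± 0.155 in the authors' deposited table and Trex1 one of 1.45 ± 0.178, both in the direction of the labels. The values in spleen were -0.92 ± 0.217 for Cgas, under its older symbol Mb21d1, and 2.71 ± 0.199 for Trex1, from the authors' deposited table. Neutrophil markers summed to a mean normalized count of 1.06e+06 in bone marrow, and B cell markers to 15287 and T cell markers to 5096 in spleen, so the defining markers of each labelled tissue were present. In spleen the neutrophil markers summed to 28323 and the erythroid markers to 20986.5, both higher, so these sums alone do not identify the tissue. Of the 77 genes called in bone marrow, 15 lay within 10 Mb of Trex1 or Cgas on chromosome 9, and 0 were on the Y chromosome. Of the 29 genes called in spleen, 17 lay within 10 Mb of Trex1 or Cgas on chromosome 9, and 5 were on the Y chromosome. The labels used here do not give the sex of donors or recipients, so a difference in sex between the spleen groups was not tested.

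In Cgas-/- bone marrow, 4 effectors fell past the test and none rose. They were Rtp4, Ifi27, Ifi27l2a and Ifitm3, each with a DESeq2 adjusted p under 0.05 in the authors' deposited table. Of the genes listed for bone marrow, 0.361% were lower by this rule and 0.173% higher, and from a mean normalized count of 20 upwards, a level which all 42 reach, 0.407% were lower. At a DESeq2 unadjusted p under 0.05, 16 of 42 were lower and none was higher in the authors' deposited table, where 4.65% of all genes were lower and 4.19% higher (5.13% lower from a mean of 20 on). Below 0 lay 39 of 42, where the share was 50.5% of all genes and 50.7% of those with a mean of at least 20. The median log2 fold change of the 42 was -0.20, beside -0.0023 over all genes. The members were chosen with earlier results of these data known, so these counts describe the 42 genes and test nothing about them as a set. With a t distribution on 6 degrees of freedom in place of DESeq2's normal one, none of the 4 passed (adjusted p = 0.986).

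**Figure D1:**
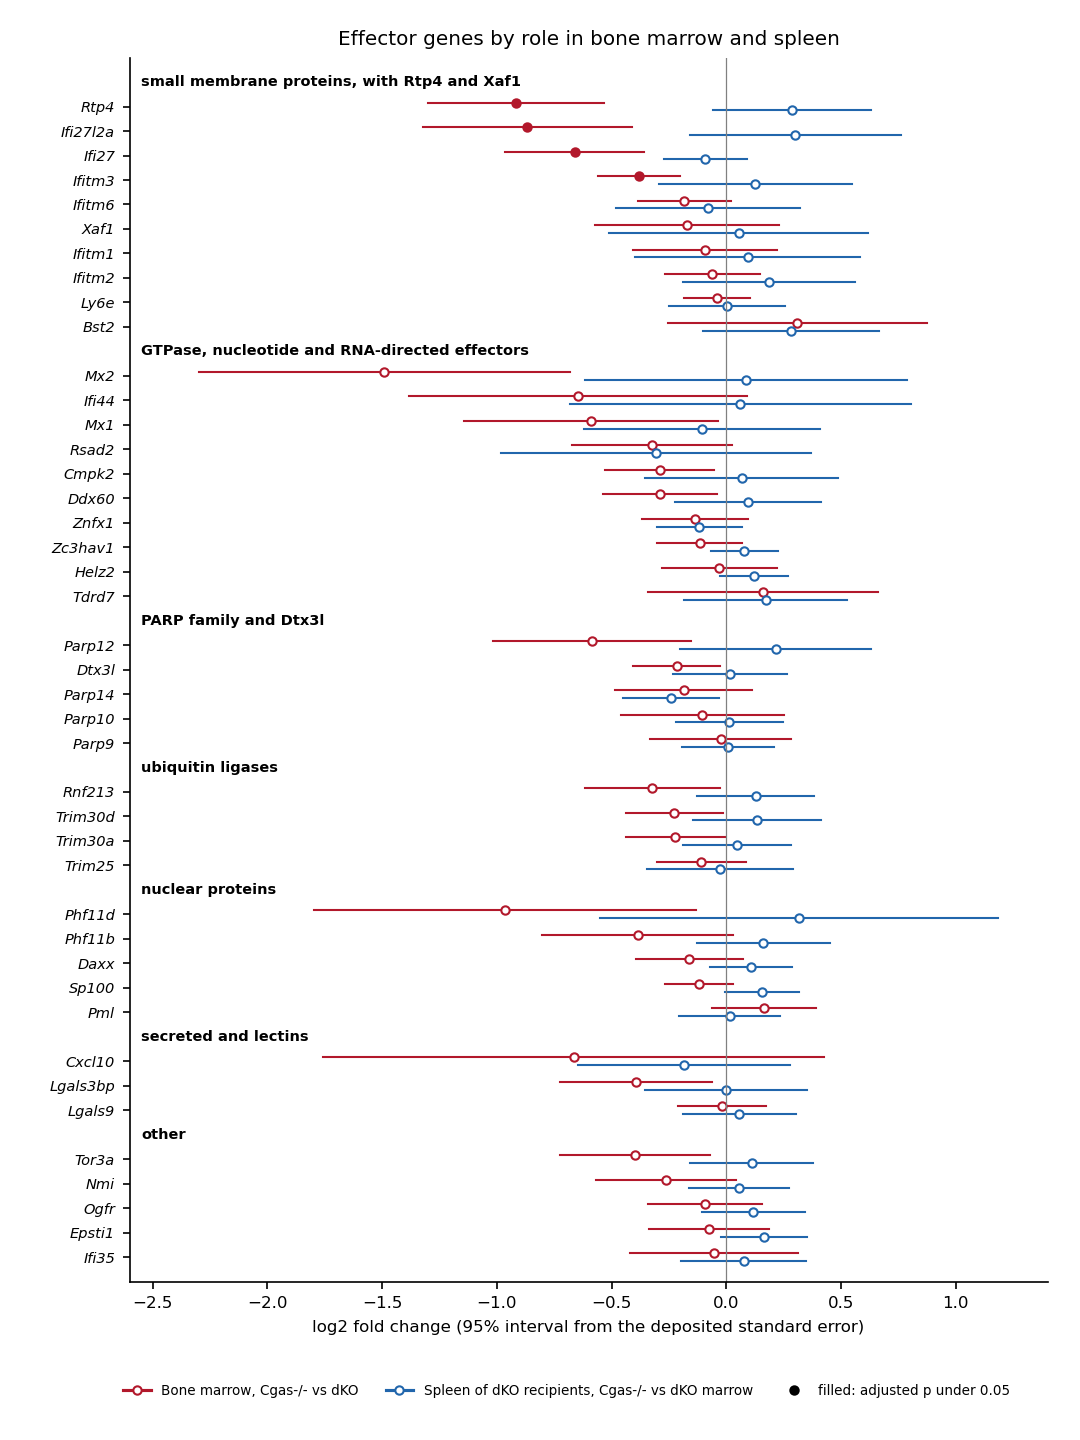
Log2 fold change of each of the 42 effectors, grouped by role, in bone marrow (red, 4 against 4 libraries) and spleen (blue, 5 against 5). Points are the authors' deposited estimates, bars are 95% intervals computed from the deposited standard errors, and filled points passed a DESeq2 adjusted p of 0.05. In bone marrow 39 of 42 red points lie left of 0 and 4 are filled, while no blue point is filled.

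Rtp4, a chaperone that brings G protein-coupled receptors to the cell surface, had the smallest p of the 42 in bone marrow. Its mean normalized count was 366 in the authors' deposited table, its log2 fold change -0.92 ± 0.195 and its DESeq2 adjusted p 0.00177. This is a 1.89-fold lower level in Cgas-/- marrow, with a 95% interval on the log2 scale of -1.30 to -0.53. Rtp4 lies on the plus strand of chromosome 16 at 23520291 to 23614222 (GRCm38), where the annotated gene Gm45338 overlaps it on the same strand and Masp1 on the other; neither is listed in the bone marrow table.

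Ifi27 and Ifi27l2a, small proteins of mitochondrial and nuclear membranes, are neighbours on chromosome 12 (103434211 to 103443680), 1.93 kb apart and on opposite strands. Ifi27 had a mean normalized count of 355 in the authors' deposited table, with a log2 fold change of -0.66 ± 0.154 and an adjusted p of 0.00869 by DESeq2. Ifi27l2a, at a mean of 792, had -0.87 ± 0.231 in the authors' deposited table, with an adjusted p of 0.0377 by DESeq2. The fold differences were 1.58 and 1.82. Ifi27l2a was the member nearest to the threshold on the inside.

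Ifitm3, the IFITM protein that guards endosomes against virus fusion, was the most abundant of the 4, with a mean normalized count of 5814 in the authors' deposited table. It had a log2 fold change of -0.38 ± 0.0915 in the authors' deposited table, with an adjusted p of 0.0120 by DESeq2, a 1.30-fold difference with a 95% interval of -0.56 to -0.20 on the log2 scale. The other members of the Ifitm cluster on chromosome 7 (140954837 to 141017924) did not pass. Ifitm6 had -0.18 ± 0.103 in the authors' deposited table, at a mean of 8141, the highest of all 42, Ifitm1 -0.09 ± 0.161 and Ifitm2 -0.06 ± 0.106. The 95% interval of Ifitm2, -0.27 to 0.15, reaches into that of Ifitm3. Tags of these genes can be mixed with those of other genes. Some of the distinct 50-base stretches in the last 500 bases of annotated transcripts also occur in transcripts of another gene. The shares were 41.9% for Ifitm2, 14.0% for Ifitm3 and 11.8% for Ifitm1, with none for Ifitm6. The gene that shared the largest number of stretches was Gm45717 for Ifitm2 and Gm7676 for Ifitm3 and Ifitm1. Of other Ifitm genes, Ifitm3 shared 20 stretches with Ifitm2 and Ifitm1 shared 15 with Ifitm3.

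Of the other small proteins at membranes, none passed. Ly6e, a glycolipid-anchored surface protein that limits coronavirus fusion, had -0.04 ± 0.0732 at a mean of 5059 in the authors' deposited table, with the smallest standard error of the 42. Its 95% interval of -0.18 to 0.10 excludes a change as large as that of Ifitm3. Xaf1, a cytosolic protein that promotes apoptosis, had -0.17 ± 0.205 in the authors' deposited table. Bst2 had the highest value of all 42, 0.31 ± 0.288 at a mean of 49.6 in the authors' deposited table, with an interval of -0.25 to 0.87. Bst2 is also a marker of plasmacytoid dendritic cells, and 2 of the other markers of those cells, Tcf4 (0.32 ± 0.0875) and Siglech (0.32 ± 0.158), were higher in the authors' deposited table at a DESeq2 unadjusted p below 0.05 without passing after adjustment. Over the whole list of 8 such markers, Bst2 included, the median was 0.02 with 5 above 0 and 3 below, down to -0.39 ± 0.271 for Klk1 in the authors' deposited table, and their part in the Bst2 value was not tested.

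Among GTPases and effectors that act on nucleotides or RNA, 9 of 10 were below 0 in bone marrow and none passed the adjusted test. Mx2, a dynamin-like GTPase, had the largest change of the 42, -1.49 ± 0.413, and the smallest adjusted p of those outside the threshold, 0.0543 by DESeq2 in the authors' deposited table. Its mean normalized count was only 23.0 in the authors' deposited table, and its 95% interval runs from -2.30 to -0.68. Mx1, its neighbour on chromosome 16, had -0.59 ± 0.282 at a mean of 74.0 in the authors' deposited table, with a DESeq2 unadjusted p of 0.0366. Both Mx genes are known to be defective in common laboratory strains, which does not prevent their transcripts from being counted.

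Cmpk2, a mitochondrial nucleotide kinase, and Rsad2 lie head to head on chromosome 12, 12.8 kb apart, and had similar changes. Cmpk2 had -0.29 ± 0.121 in the authors' deposited table (DESeq2 unadjusted p = 0.0163) and Rsad2 -0.32 ± 0.178 (DESeq2 unadjusted p = 0.0682), at means of 423 and 489. Ddx60, a helicase that promotes RIG-I signalling, had -0.29 ± 0.126 at a mean of 474 in the authors' deposited table (DESeq2 unadjusted p = 0.0226). Ifi44, a cytoplasmic protein of the response, had -0.65 ± 0.376 in the authors' deposited table, with an interval of -1.38 to 0.09 that its mean of 56.9 leaves wide. The remaining RNA-directed members had estimates close to 0, not all of them precise. The zinc-finger protein genes Znfx1 and Zc3hav1, the latter encoding the antiviral protein ZAP, had -0.14 ± 0.118 and -0.12 ± 0.0945 in the authors' deposited table. The helicase gene Helz2 had -0.03 ± 0.128 there and the Tudor protein gene Tdrd7 0.16 ± 0.255, in the authors' deposited table.

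All 5 members of the group of PARP genes and Dtx3l were below 0, and 2 had an unadjusted p under 0.05. Parp12, a mono-ADP-ribosyltransferase that restricts alphaviruses, had -0.58 ± 0.220 at a mean of 80.2 in the authors' deposited table (DESeq2 unadjusted p = 0.00783), 1.50-fold lower in Cgas-/- marrow. Dtx3l, a ubiquitin ligase that pairs with PARP9, had -0.22 ± 0.0964 in the authors' deposited table (DESeq2 unadjusted p = 0.0252). Parp9 itself, whose 5' end overlaps that of Dtx3l on the other strand, had -0.03 ± 0.157 in the authors' deposited table. The Parp9 interval, -0.33 to 0.28, includes the Dtx3l estimate, and the difference between the partners was not tested. Parp14 (-0.18 ± 0.152), in the same region of chromosome 16, and Parp10 (-0.10 ± 0.182) did not pass in the authors' deposited table. For Parp10, 10.6% of the 50-base stretches are shared with Plec.

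The ubiquitin ligase genes all lay below 0, 3 of the 4 with an unadjusted p under 0.05. Rnf213, a giant ligase that coats intracellular bacteria, had -0.32 ± 0.150 in the authors' deposited table (DESeq2 unadjusted p = 0.0320). The TRIM ligase genes Trim30d and Trim30a had -0.23 ± 0.107 and -0.22 ± 0.110 in the authors' deposited table (DESeq2 unadjusted p = 0.0347 and 0.0432), at means of 650 and 1410. Trim30a and Trim30d lie side by side on chromosome 7, 4.82 kb apart, and share 19.9% and 16.9% of their 50-base stretches, mostly with each other, so their values are not fully separate. Trim25, the ligase that ubiquitinates RIG-I, had -0.11 ± 0.0993 in the authors' deposited table.

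Of 5 nuclear proteins, 4 were below 0. Phf11d, a PHD-finger protein, had -0.96 ± 0.424 at a mean of 22.8 in the authors' deposited table (DESeq2 unadjusted p = 0.0232), and its neighbour Phf11b -0.39 ± 0.212 at a mean of 147. Here the paralogs are closest: 42.6% of the 50-base stretches of Phf11b and 25.3% of those of Phf11d occur in other genes, mainly other Phf11 genes. The components of PML nuclear bodies, which recruit and silence viral genomes, had values near 0. In the authors' deposited table the chaperone gene Daxx had -0.16 ± 0.119, Sp100 -0.12 ± 0.0753 and Pml 0.16 ± 0.115. Pml is the only one of the 42 on chromosome 9, 20.2 Mb from Cgas and 50.8 Mb from Trex1, and without it 39 of 41 were below 0 with a median of -0.22.

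Among secreted proteins and lectins, Lgals3bp, a secreted glycoprotein that binds galectin, had -0.39 ± 0.170 in the authors' deposited table (DESeq2 unadjusted p = 0.0202). Cxcl10, the chemokine that attracts activated T cells through CXCR3, had -0.67 ± 0.556 at the lowest mean of the 42, 21.9, in the authors' deposited table. Its interval of -1.76 to 0.42 allows a large fall as well as a small rise. Lgals9, a galectin, had -0.02 ± 0.0970 in the authors' deposited table. Of the remaining 5, Tor3a, an ATPase of the endoplasmic reticulum, had -0.40 ± 0.168 in the authors' deposited table (DESeq2 unadjusted p = 0.0176). Nmi, a partner of STAT proteins, and Ifi35, which binds Nmi, had -0.26 ± 0.156 and -0.05 ± 0.186 in the authors' deposited table. Ogfr, the opioid growth factor receptor, and Epsti1 had -0.09 ± 0.127 and -0.07 ± 0.133 in the authors' deposited table. In all, 20 of 42 were within 0.2 of 0 on the log2 scale in bone marrow.

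Promoter sequences from RefSeq (GRCm38.p6), 250 bases before to 50 after the start of transcription, were matched by symbol for 32 of the 42 genes. They were searched for the core of the interferon-stimulated response element, taken as GAAA, any 2 bases and GAAA again, and on the other strand as TTTC, any 2 bases and TTTC. At least 1 match was found for 12 of 32 (37.5%, exact Clopper-Pearson 95% interval 21.1% to 56.3%), and for 3.99% of the 27025 genes in the table. The interval treats the genes as independent draws, which a chosen list with paralogs is not, and the 2 shares were not tested against each other. Of the 12 genes with the motif, 4 had an unadjusted p under 0.05 in bone marrow and the median log2 fold change was -0.22. Of the 20 without it, 6 did and the median was -0.17. The 10 genes not matched, Rtp4, Ifi27, Ifi27l2a, Mx1, Mx2, Ly6e, Tor3a, Parp9, Parp10 and Parp14, were not searched, and hold 3 of the 4 called genes. At an unadjusted p under 0.05, 6 of these 10 were lower, and their median was -0.49, below that of either searched group. Of all genes in bone marrow, 4.65% were lower at that threshold, and 5.13% from a mean normalized count of 20 on. These groups were not tested against each other.

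The matches of the members with the smallest bone marrow p are shown on the gene's strand, 5′ to 3′, with the motif in capitals, because they show the form and place of the element in genes that were lower and in genes that were not. Each short stretch spans 30 bases. The Ifitm3 matches begin at bases 20 and 3 counted from the start, and the others printed lie upstream. Trim30a has another match, not printed, that begins at base 3 of a different annotated start:
Ifitm3 (chr7:141010706-141010735): aaacttctgaGAAACCGAAActgccgcaga
Ifitm3 (chr7:141010723-141010752): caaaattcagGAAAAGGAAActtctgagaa
Trim30d (chr7:104507871-104507900): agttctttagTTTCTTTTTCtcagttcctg
Trim30a (chr7:104465210-104465239): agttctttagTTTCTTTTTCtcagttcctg
Rsad2 (chr12:26456553-26456582): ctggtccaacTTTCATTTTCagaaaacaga
Phf11b (chr14:59341361-59341390): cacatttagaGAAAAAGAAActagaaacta
Cxcl10 (chr5:92349083-92349112): tcacgctttgGAAAGTGAAActtacctcac
The stretches of Trim30d and Trim30a are identical, and their log2 fold changes in bone marrow, printed above, differed by less than their standard errors.

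Ddx60 and Bst2 each hold a pair of matches and are shown over 250 bases upstream of the start. In Ddx60, which was lower at an unadjusted p under 0.05, they begin at bases -53 and -19 from the start. In Bst2, whose value was above 0, they begin at -130 and -124 and overlap:
Ddx60 (chr8:61927837-61928086, plus strand): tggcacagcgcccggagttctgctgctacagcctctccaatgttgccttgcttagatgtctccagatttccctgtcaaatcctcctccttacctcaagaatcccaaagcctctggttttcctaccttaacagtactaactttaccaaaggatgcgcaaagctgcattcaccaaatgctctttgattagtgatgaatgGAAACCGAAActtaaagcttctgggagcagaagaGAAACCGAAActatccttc
Bst2 (chr8:71537473-71537722, minus strand): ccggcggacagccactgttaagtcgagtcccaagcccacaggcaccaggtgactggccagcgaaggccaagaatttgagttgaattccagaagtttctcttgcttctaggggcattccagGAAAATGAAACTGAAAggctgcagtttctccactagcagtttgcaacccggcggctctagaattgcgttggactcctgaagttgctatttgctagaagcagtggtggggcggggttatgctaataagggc
A match is a description of letters in a window and shows no binding. The other 4 genes with a match, Ogfr, Tdrd7, Ifitm2 and Lgals9, had log2 fold changes between -0.09 and 0.16 in the authors' deposited table.

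**Figure D2:**
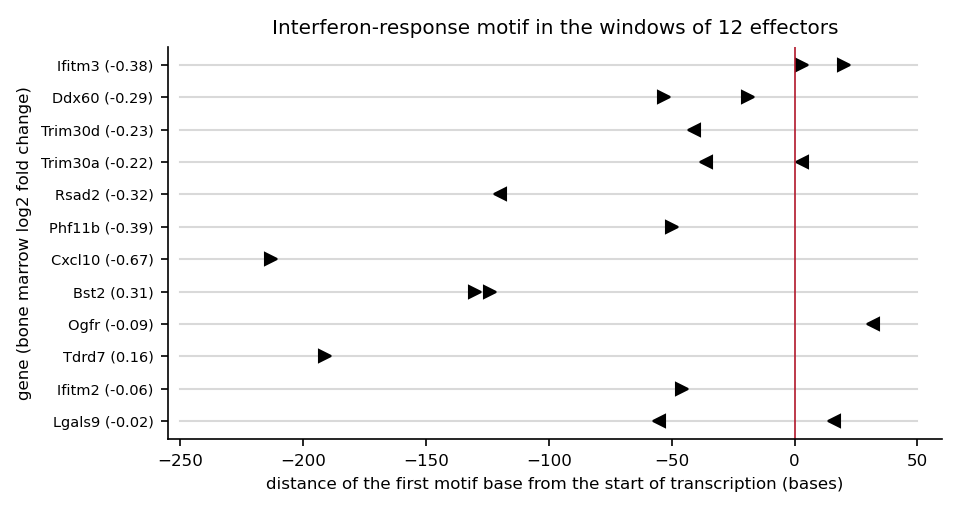
Place of each match of the response element core in the windows of 12 effectors, ordered by bone marrow p. The horizontal axis is the distance in bases from the start of transcription (red line), triangles pointing right are matches of the GAAA form and those pointing left of the TTTC form, and the bone marrow log2 fold change follows each name. Ddx60 and Bst2 both have a pair of upstream matches, with log2 fold changes of -0.29 and 0.31.

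The other interferon-stimulated families examined also had medians below 0 in the same marrow libraries. The oligoadenylate synthetases with RNase L, which degrade RNA, had a median log2 fold change of -0.82 with 9 of 9 below 0 and 4 called. The Ifit genes, which bind viral RNA, had -0.47 with 5 of 6 below 0, and the interferon-induced GTPases -0.29 with 12 of 13. The ISG15 system, a ubiquitin-like modifier with its enzymes, had -0.31 with 4 of 5 below 0, and neither it nor the Ifit genes or GTPases had a called gene. At an unadjusted p under 0.05, 7 of the 9 oligoadenylate synthetase and RNase L genes, 2 of the 6 Ifit genes, 2 of the 5 of the ISG15 system and 1 of the 13 GTPases were lower and none was higher. Interferon signalling genes had a median of -0.09 over the 20 of 22 listed, between -0.66 and 0.59, with no call and with 2 lower and 2 higher at an unadjusted p under 0.05; the lists were not tested against each other. The lowest of them was the transcription factor gene Irf7, itself interferon-induced, at -0.66 ± 0.192 in the authors' deposited table and did not pass (DESeq2, adjusted p = 0.0790). The receptor genes lay between -0.16 and 0.08.

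Markers of blood cell types also differed between the groups. Monocyte markers had a median of -0.35, with 8 of 10 below 0 and 4 lower past the adjusted test, among them Ly6c2 (-0.33 ± 0.0794) and Ms4a4c (-0.60 ± 0.150) in the authors' deposited table. Ms4a4c is itself interferon-inducible. Neutrophil markers had a median of -0.12 with 11 of 12 below 0 and none called. Erythroid markers were above 0 in 10 of 10, with a median of 0.66 and 1 call. B cell markers had a median of 0.14 with 9 of 10 above 0 and 1 call, Dntt, the polymerase that adds bases at V(D)J joints, at 0.64 ± 0.166 in the authors' deposited table with an adjusted p of 0.0311 by DESeq2. Vpreb1, part of the surrogate light chain, had 0.76 ± 0.215 there and did not pass (DESeq2, adjusted p = 0.0638). None of these markers was at 0 mean counts, their levels per group were not analysed here, and their part in the values of the effectors was not tested.

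**Figure D3:**
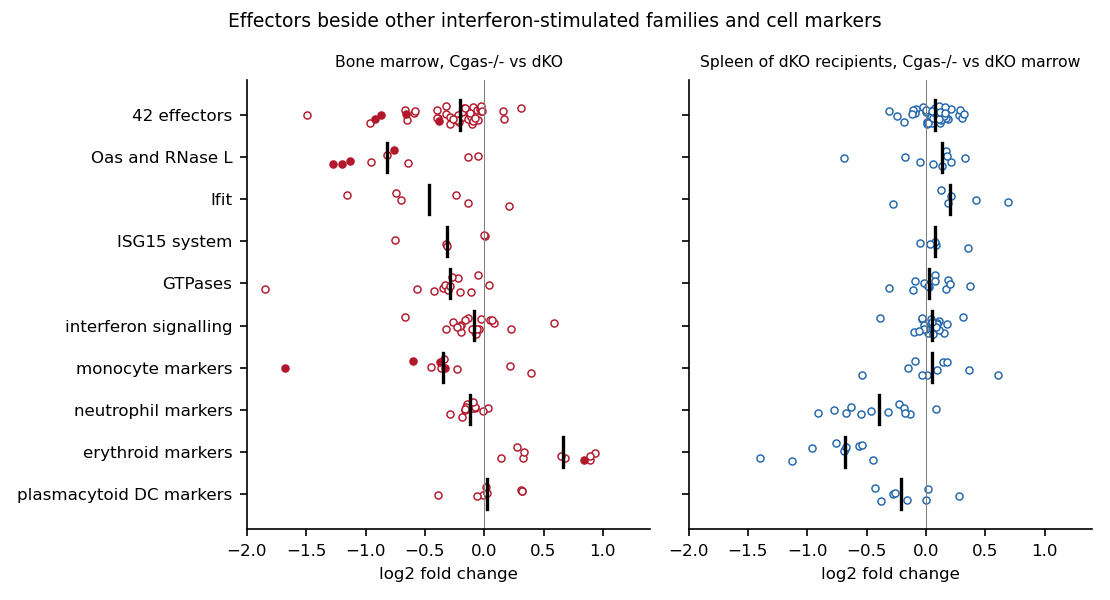
Log2 fold changes of single genes (points, filled where the DESeq2 adjusted p was under 0.05) and list medians (bars) in bone marrow and spleen, for the 42 effectors, other interferon-stimulated families, interferon signalling and cell markers. In bone marrow the effectors' median of -0.20 lies with those of the other families left of 0, and the erythroid median of 0.66 right of it, while in spleen the erythroid median is -0.69.

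In spleen, no effector passed the test, where 0.133% of all genes did in either direction. Every one of the 42 had an adjusted p of 0.999997 by DESeq2 in the authors' deposited table. By unadjusted p, again with 0.05 as threshold, 1 of 42 was lower and none higher, where 1.85% of all genes were lower and 1.17% higher. That gene was Parp14, a mono-ADP-ribosyltransferase that favours STAT6 signalling, at -0.24 ± 0.106 and a mean of 766 in the authors' deposited table (DESeq2 unadjusted p = 0.0227). From a mean normalized count of 20 upwards, a level which 2 of the 42 do not reach, 176 of 11118 genes were lower and 225 higher at that threshold. Of the 42, 33 were above 0, beside 45.0% of all genes and 52.0% of those with a mean of at least 20. Their median log2 fold change was 0.08, beside -0.03 over all genes and 0.0057 over those with a mean of at least 20.

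The spleen estimates were small, but not all were closely bounded. All 42 lay within 0.32 of 0, from -0.31 ± 0.345 for Rsad2 to 0.32 ± 0.442 for Phf11d in the authors' deposited table. The 95% intervals of 41 of 42 lay within 1 of 0 on the log2 scale, and those of 27 lay within 0.5. Phf11d, at a mean of only 9.49, was the exception to the wider bound. For 21 of 42 the lower end of the spleen interval lay above the bone marrow estimate. For the other members the spleen interval included that estimate, so a change as large as in marrow was not excluded. The genes called in bone marrow had no common direction in spleen: in the authors' deposited table Rtp4 had 0.29 ± 0.175, Ifi27l2a 0.30 ± 0.234, Ifitm3 0.13 ± 0.214 and Ifi27 -0.09 ± 0.0923. Sp100 at 0.15 ± 0.0823 and Epsti1 at 0.16 ± 0.0963 had the smallest p among upward values in the authors' deposited table, each with an interval that includes 0. Among cell markers in spleen, the erythroid median was -0.69 with 10 of 10 below 0, the neutrophil median -0.39 with 11 of 12 below 0 and the T cell median 0.12 with 10 of 10 above 0, none of them called. Their part in the effectors' values was not tested.

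**Figure D4:**
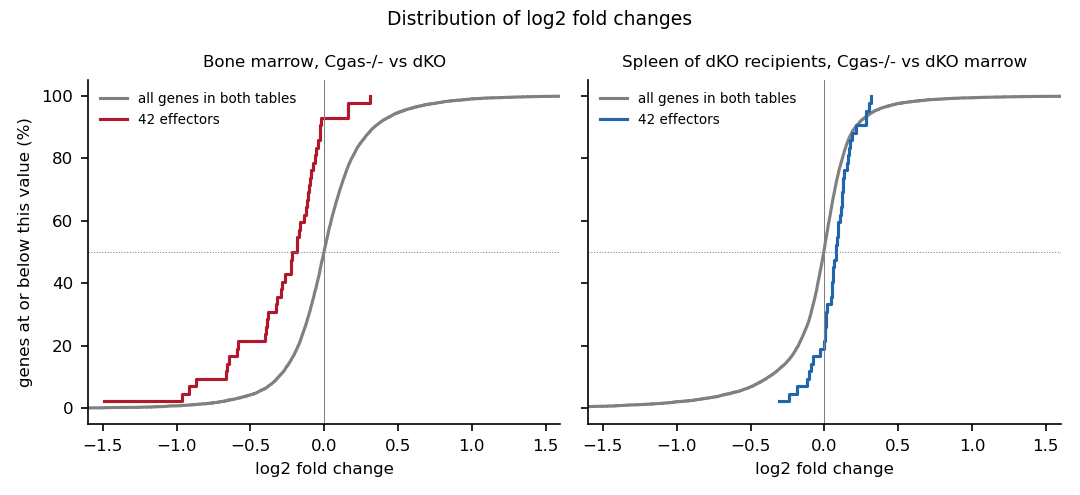
Cumulative share of genes (vertical axis, percent) at or below each log2 fold change (horizontal axis) for the 42 effectors (coloured) and all genes in both tables (grey). In bone marrow the effectors' curve lies left of the grey curve and 39 of 42 are below 0, and in spleen 9 of 42 are.

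The change in spleen was set against that in bone marrow by dividing the difference of their log2 fold changes by its standard error, the root of the sum of both squared errors. The comparisons share no library. For Rtp4 the difference, spleen minus bone marrow, was 1.20 ± 0.262 on the log2 scale, with a 95% interval of 0.69 to 1.72. It was the 1 effector to pass after Benjamini-Hochberg adjustment over 13776 genes (two-sided normal test, adjusted p = 0.00794), a rule that 0.0581% of all genes passed, and it did not pass with a t distribution (adjusted p = 0.984). Next came Ifi27l2a at 1.17 ± 0.329 (adjusted p = 0.283), Ifi27 at 0.57 ± 0.180 (adjusted p = 0.486) and Mx2 at 1.58 ± 0.546 (adjusted p = 0.640). At an unadjusted p under 0.05, 12 of 42 were higher in spleen than in bone marrow and none lower, where 2.21% and 2.59% of all genes were. The other 8 of the 12 were Parp12, Sp100, Tor3a, Rnf213, Ifitm3, Phf11b, Phf11d and Trim30d.

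Across the 42, 39 had a difference above 0, beside 47.5% of all genes in both tables. Below 0 in bone marrow and above 0 in spleen lay 30 of them, beside 23.9% of all such genes. Another 9 were below 0 in both tissues and 3, Bst2, Tdrd7 and Pml, above 0 in both. Changes in marrow and spleen had a Pearson r of -0.10 and a Spearman rho of -0.02 across the 42 genes, which are not independent and share their libraries. All spleen values lay within 0.32 of 0, with a median standard error of 0.145. A correlation near 0 therefore cannot show whether the changes in the tissues are related. For Rsad2, Znfx1, Tdrd7 and Bst2 the estimates in both tissues were nearly equal. Their differences were 0.02 ± 0.388, 0.02 ± 0.151, 0.01 ± 0.313 and -0.03 ± 0.347, so larger differences were not excluded. Marrow was taken without transplantation and spleen after it, and in spleen the host was dKO in both groups, so tissue, transplantation and host genotype cannot be told apart. A difference in sex between the spleen groups, where 5 of the 29 called genes were on the Y chromosome, was not tested either.

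**Figure D5:**
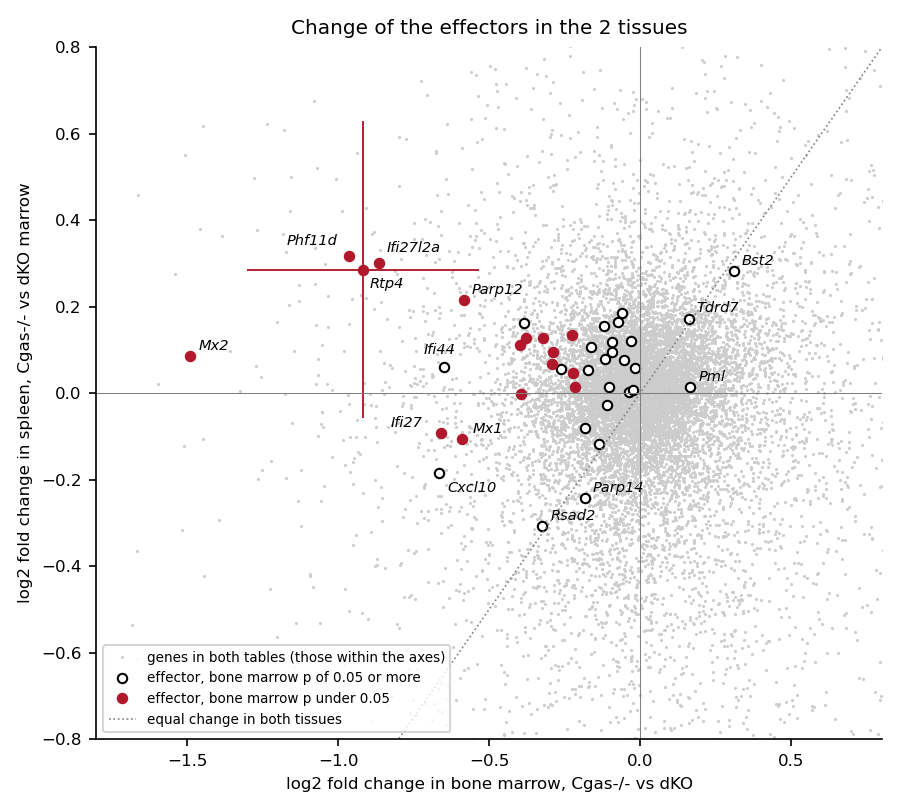
Log2 fold change in spleen (vertical) against bone marrow (horizontal) for the 42 effectors and, in grey, the genes of both tables that fall within the axes. Red points had an unadjusted p under 0.05 in bone marrow, the cross gives the 95% intervals of Rtp4, and the dotted line marks equal change. Most effectors lie left of 0 and close to or above the horizontal line, and Bst2, Tdrd7 and Rsad2 lie near the dotted line.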

How the data were processed

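Libraries of 3' tags (QuantSeq forward) were made from RNA of dissociated bone marrow (8 libraries) and spleen (10), per the labels' protocols, and grouped by their titles. Tools named by the submitters' processing notes are DESeq2, Partek, STAR 2.6.1 and bcl2fastq 1.8.4, with build mm10. How tags were counted, on which strand, with which annotation and gene filter is not given in the sources used here. Per the file headers, the authors deposited for each tissue 1 table of DESeq2 results. The mean normalized count is a signal that the authors scaled by size factors and averaged over libraries, per the file headers. Each log2 fold change, with its error on the same scale, is an estimate made by the authors in DESeq2, and the Wald score deposited beside it is their ratio. The authors' p-values are given raw and with Benjamini-Hochberg adjustment over all genes of the table, per the file headers. The score, p-value and adjustment were recomputed and matched the deposited columns. Values per library were not used here.

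Intervals are normal 95% intervals from the deposited standard errors. The test of the difference between tissues was also run on simulated data. Those data were drawn from a normal distribution with the deposited standard errors, so the run cannot show whether either holds for these libraries. The 42 members and all lists were chosen with earlier results of these data known. Named are all members, the targeted genes Cgas and Trex1 and, for each other list, up to 2 genes with the smallest p per tissue. Also named are Klk1, the lowest plasmacytoid dendritic cell marker in bone marrow, and genes that overlap a member or share stretches with it. Coordinates are from GENCODE M21 (GRCm38, the assembly of mm10), 1-based, and promoters from RefSeq (GRCm38.p6). Shared stretches are distinct 50-base sequences of the last 500 bases of all annotated transcripts of a gene found in a transcript of another gene. Python 3.11.15, pandas 2.3.3, numpy 2.4.6, scipy 1.17.1, statsmodels 0.14.6 and matplotlib 3.10.9 were used. Alternatives were the set of genes adjusted over, the threshold, a t distribution, centring and the summary over members.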

Additional observations from a re-analysis of the deposited data

Results flagged for a closer look

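Rtp4 is the effector whose change differed between the tissues by the test of the difference itself: the log2 fold change was 1.20 higher in spleen than in bone marrow (adjusted p = 0.00794, two-sided normal test with Benjamini-Hochberg adjustment over 13776 genes). In the authors' deposited tables it was -0.92 ± 0.195 in bone marrow and 0.29 ± 0.175 in spleen. The direction in single libraries was not analysed here, and no other effector passed this test.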

How the results depend on the processing

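The results rest on the standard errors in the authors' deposited tables. With a t distribution on 6 and 8 residual degrees of freedom in place of the normal distribution, 0 members were called in bone marrow (from 4) and 0 differed between tissues (from 1), and 1 gene of all 14423 was called in bone marrow; that setting ignores the information on spread that DESeq2 borrows across genes. The adjusted p was then 0.986 for Rtp4, Ifi27, Ifi27l2a and Ifitm3 and 0.984 for the Rtp4 difference. A threshold of 0.01 left 2 members in bone marrow, Rtp4 and Ifi27, and one of 0.1 gave 5. Adjusting over genes with a mean of at least 20 added Mx2 (adjusted p = 0.0477). After centring on the median gene, Ly6e in spleen turned from 0.0032 to -0.0025, and no other of the 126 single values changed direction. No member was called in spleen under any of the settings run. The medians over members kept their direction under all 3 alternatives tried for each. With a motif shorter by its last base, 43.8% of matched members and 9.76% of all genes held a match. No paired analysis was possible because the files used give no values per library, and leaving out a replicate was not run for the same reason. Without counts per library, precision is known only from the standard errors, from 0.0732 to 0.556 in bone marrow and 0.0749 to 0.442 in spleen.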
